A study of Homo sapiens with 8 samples.

Results

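The cyclin-dependent kinase (CDK) inhibitors examined here are the 7 genes of the CIP/KIP family (CDKN1A, CDKN1B and CDKN1C) and of the INK4 family (CDKN2A, CDKN2B, CDKN2C and CDKN2D), taken by gene name from a table of 58735 genes. All 7 were present, and all 7 passed the filter on low counts with 14621 genes in all. Their RNA-seq read counts were compared between 4 libraries of cells carrying an empty lentiviral vector (EV) and 4 libraries of cells with lentiviral overexpression of Flag-tagged KRT19 (KRT19-OVE), an intermediate filament protein of simple epithelia. The cells of both groups were labelled A549, a human lung adenocarcinoma line, and both lines had been selected with puromycin to give stable lines. The extraction note of the labels names retina, which does not match a cell line. The sources used here do not say whether the replicate libraries came from separate cultures or whether a line was 1 clone, so the p-values measure the spread between these libraries, which may be technical. The comparison bears on the question of whether KRT19 alters p21, the product of CDKN1A, and with it the exit from the cell cycle known as senescence.

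CDK inhibitors brake the cell cycle by binding the kinases that drive it. The INK4 proteins bind CDK4 and CDK6 and keep them from cyclin D, whereas the CIP/KIP proteins bind complexes of cyclin and kinase, with CDK2 the best known of those they inhibit. When the kinases are held back, the retinoblastoma protein stays bound to E2F factors and genes for DNA synthesis remain off. CDKN1A and the p16 product of CDKN2A are widely used as marks of senescent cells, and the amounts of p21 and p27 also depend strongly on protein breakdown, which read counts do not show.

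CDKN1A was the only inhibitor whose groups did not overlap, with 212 ± 9.51 CPM (counts scaled to a common library size by TMM) in EV libraries and 188 ± 10.1 CPM in KRT19-OVE libraries (SD, n = 4 each). Neither CDKN1A nor any of the other inhibitors passed the adjusted threshold of 0.05 in edgeR's quasi-likelihood test, and 2 of the 7, CDKN1A and CDKN1B, had an unadjusted p under 0.05, both lower in KRT19-OVE. Over all genes tested, 0.00684% passed the adjusted threshold (KRT19 alone). An unadjusted p under 0.05 was found for 5.41% of them, 2.56% being lower in KRT19-OVE, and 3.44% had no overlap between the groups, 1.81% being lower. A log2 fold change is that of KRT19-OVE over EV.

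Where the counts of a member could be assigned to it alone was measured by 75-base words of its GENCODE 29 transcripts that also occur in another gene. For CDKN2A, which lies next to CDKN2B on chromosome 9, 5.96% of the words were shared, with CDKN2B in the same orientation or with the antisense gene CDKN2B-AS1 in reverse. The share was 2.39% for CDKN1A, all of it with the antisense gene DINOL, and 0.148% for CDKN2B. It was 0% for CDKN1B, CDKN1C, CDKN2C and CDKN2D. Strand handling of the counting is not given in the sources used here, so reads from a gene and its antisense partner cannot be told apart. DINOL held 7 counts and CDKN2B-AS1 157 counts over all 8 libraries, against at least 2726 for CDKN1A and 1328 for CDKN2A in each single library.

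The study also measured CDKN1A and CDKN2A by real-time PCR, and its primers show which transcripts that assay reads. They are given 5′ to 3′ from the study's primer list, and were matched to the GENCODE 29 transcripts.
CDKN1A forward primer: tgtccgtcagaacccatgc
CDKN1A reverse primer: aaagtcgaagttccatcgctc
CDKN2A forward primer: gccttttcactgtgttggag
CDKN2A reverse primer: tgccatttgctagcagtgtg

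The CDKN1A pair matched 7 of 8 CDKN1A transcripts and spans 139 bases of coding sequence at chr6:36684122-36684260. The CDKN2A pair spans 184 bases at chr9:21967799-21967982, outside the coding sequence, and matched 2 of 14 CDKN2A transcripts. Those were CDKN2A-201, whose first exon at chr9:21974678-21975098 belongs to p16, and CDKN2A-214, whose first exon at chr9:21994139-21994624 belongs to the other product of the gene, ARF. Neither the PCR product nor the deposited count per gene therefore separates p16 from ARF transcripts. The paper measured CDKN2A by PCR in A549 cells after hydrogen peroxide and in PC-9 cells, which differs from the libraries here as labelled.

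The promoter of CDKN1A is shown because this member had the lowest p of the 7. The 300 bases at chr6:36678464-36678763 (GRCh38.p14, plus strand, RefSeq), 250 before to 50 after a transcription start, are printed with the motif GGGCGG, the core of GC boxes, in capitals.
CDKN1A promoter: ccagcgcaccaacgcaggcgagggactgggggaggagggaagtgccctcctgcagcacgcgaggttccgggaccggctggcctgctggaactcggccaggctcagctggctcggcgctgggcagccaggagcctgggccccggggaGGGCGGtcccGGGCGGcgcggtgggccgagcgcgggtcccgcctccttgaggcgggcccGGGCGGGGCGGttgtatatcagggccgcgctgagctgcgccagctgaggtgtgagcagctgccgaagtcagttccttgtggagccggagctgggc

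This window held 4 copies of GGGCGG, the last 2 of which overlap by 1 base, and 74.3% of its bases were G or C, against a median of 58.7% over 35116 promoters. Searched on both strands (GGGCGG or CCGCCC), the motif occurred in 7 of the 9 promoter windows found for 6 members and in 45.0% of all promoters. TATAAA occurred in 0 of the 9 windows and in 11.5% of all promoters, CACGTG in 2 of the 9 and in 7.26%, and CCAAT in 3 of the 9 and in 34.6%. CDKN2A had 2 windows, of which the one at the p16 start held 2 copies of GGGCGG and the one farther upstream (chr9:21995275-21995574) held 0. CDKN1C was not matched. A match describes the letters only.

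The library totals lay between 14073065 and 17054364 counts and did not differ between the groups by more than their spread (exact permutation test, two-sided, p = 0.629). KRT19-OVE replicate 3 stood apart from the other libraries of its group, its pairs having chi-square values over genes of 7.71 to 13.6 per degree of freedom against 2.78 to 6.49 in all other pairs of replicates. Without it, the log2 fold changes were -0.14 for CDKN1A, -0.18 for CDKN1B, 0.059 for CDKN1C, -0.043 for CDKN2A, -0.12 for CDKN2B, -0.049 for CDKN2C and -0.11 for CDKN2D, and CDKN1A and CDKN1B were still the 2 members at an unadjusted edgeR p under 0.05. KRT19 was counted 1 to 5 times in EV libraries and 4353 to 5147 times in KRT19-OVE libraries, which follows the group labels. In EV this was 0.0666 to 0.294 CPM, around the level of 3 counts taken as the floor (0.175 to 0.213 CPM). So low a level goes against the cell label, since the paper describes endogenous KRT19 in A549 cells. Against the cell label, 9p21 genes were counted in every library, with CDKN2A at 1328 to 1824, CDKN2B at 466 to 659 and the neighbouring enzyme gene MTAP at 653 to 870 counts, whereas A549 is known for a homozygous deletion that takes away CDKN2A. Markers of NRF2 activity, known to be high in A549, reached 1 CPM on average for 5 of 10 genes, and AKR1B10 had 1 to 14, ALDH1A1 0 to 3 and ALDH3A1 0 to 4 counts. In that list TXNRD1 had means of 806 ± 18.4 in EV libraries and 875 ± 26.6 CPM in KRT19-OVE libraries (SD, n = 4 each, edgeR p = 0.0147, adjusted p = 0.906, exact permutation p = 0.0286), and the summed list lay at 1446 to 1494 and 1519 to 1563 CPM. Of the epithelial markers 5 of 8 reached 1 CPM, with KRT18 at 315 and 311 and KRT8 at 221 and 209 CPM on average in EV and KRT19-OVE, and with EPCAM at 0 to 3 and CDH1 and ESRP1 at 0 to 1 counts, and apart from KRT19 none was called (sum 520 to 568 in EV, 762 to 889 CPM in KRT19-OVE, KRT19 included). Fibroblast markers reached 1 CPM for 1 of 6 genes (sum 2.40 to 3.29 in EV, 1.85 to 3.80 CPM in KRT19-OVE), endothelial for 1 of 4 (2.77 to 3.13 and 2.17 to 2.48), immune for 0 of 5 (0 to 0.487 and 0.331 to 0.604) and retinal for 0 of 6 (0 to 0.362 and 0.0586 to 0.265), with RCVRN at 0. The part of these differences in the values of the inhibitors was not tested, and the samples are called the cells labelled A549 throughout. In bulk libraries, fewer cells that express a gene and less of its RNA per cell cannot be told apart.

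The CIP/KIP family was led by CDKN1A (ENSG00000124762, chromosome 6, 36676460 to 36687339, plus strand), which encodes p21 and is induced by DNA damage and other stresses. The EV libraries, replicates 1 to 4, held 214, 198, 221 and 213 CPM of CDKN1A. The KRT19-OVE libraries held 195, 194, 173 and 188 CPM. All 4 KRT19-OVE libraries lay below every EV library, with 3 CPM between the lowest EV library, replicate 2, and the highest KRT19-OVE library, replicate 1. The lowest of all was KRT19-OVE replicate 3, and the fitted change was smallest without it.

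The log2 fold change of CDKN1A was -0.17 ± 0.053 (SE), with a 95% interval of -0.29 to -0.063. In percent the change was -11.4%, with an interval of -17.9% to -4.26%. By edgeR's quasi-likelihood test (p = 0.00421, Benjamini-Hochberg adjusted p = 0.868), CDKN1A had rank 67 among the 14621 genes tested, and the exact two-sided permutation test gave p = 0.0286, the smallest that 4 libraries against 4 allow. The unadjusted p stayed under 0.05 whichever of the 8 libraries was omitted, and the adjusted p did not reach 0.05 under any setting tried.

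CDKN1B (ENSG00000111276, chromosome 12, 12715058 to 12722371, plus strand) encodes p27, which holds resting cells out of the cycle. Its EV libraries held 51.2, 49.8, 49.0 and 46.3 CPM. In KRT19-OVE, 40.4, 45.3, 46.8 and 44.8 CPM were measured. The groups overlapped, since 3 of the 4 KRT19-OVE libraries lay below every EV library and replicate 3 lay above EV replicate 4.

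The means of CDKN1B were 49.1 ± 2.08 CPM in EV and 44.3 ± 2.77 CPM in KRT19-OVE (SD, n = 4 each), a log2 fold change of -0.15 ± 0.062 (SE, 95% interval -0.28 to -0.017). The edgeR test gave p = 0.0292 and an adjusted p of 0.906, and the exact permutation test gave p = 0.0571. The value rests in part on KRT19-OVE replicate 1, the lowest library of CDKN1B. Without it the log2 fold change was -0.10 with an unadjusted edgeR p of 0.116, without EV replicate 1 that p was 0.0792, and without EV replicate 2 it was 0.0615.

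CDKN1C (ENSG00000129757, chromosome 11, 2883213 to 2885773, minus strand) encodes p57, an imprinted inhibitor best known from development. It was the only low member, with 29, 46, 61 and 33 counts in EV libraries. KRT19-OVE libraries held 39, 53, 45 and 31 counts. The counts of both groups overlap widely, and at this depth counting alone gives a coefficient of variation of 15.4%, against 32.7% measured in EV and 27.8% in KRT19-OVE.

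With means of 2.59 ± 0.846 and 2.70 ± 0.750 CPM in EV and KRT19-OVE (SD, n = 4 each), CDKN1C had a log2 fold change of 0.050 ± 0.24 (SE, edgeR p = 0.836, adjusted p = 0.982, exact permutation p = 0.8). Its 95% interval of -0.45 to 0.55 holds changes larger than that of CDKN1A in either direction. A difference of that size was therefore not detectable for this gene with this spread between libraries. The sign turned when EV replicate 1, EV replicate 4 or KRT19-OVE replicate 2 was left out.

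**Figure D1:**
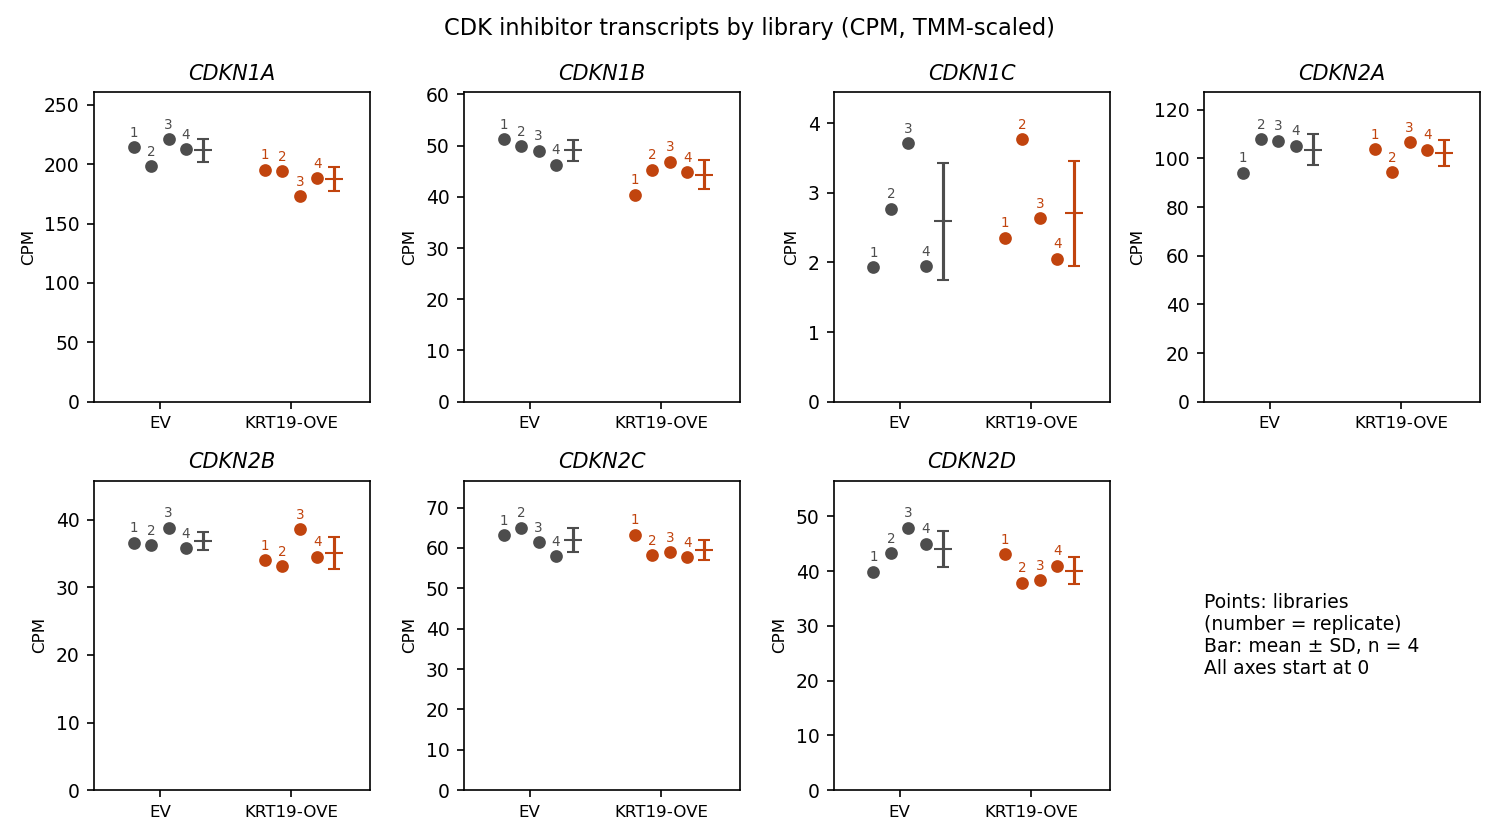
Level of each of the 7 inhibitors by library, in TMM-scaled CPM, with 4 points for EV, 4 points for KRT19-OVE and the group mean ± SD. Only CDKN1A shows 4 KRT19-OVE points (173 to 195 CPM) below all 4 EV points (198 to 221 CPM), and the points of the other 6 members overlap.

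The INK4 family had 4 of 4 members with a fitted log2 fold change below 0, and none had an unadjusted p under 0.05. CDKN2A (ENSG00000147889, chromosome 9, 21967753 to 21995301, minus strand) encodes p16 and ARF from separate first exons. The EV libraries held 94.2, 108, 107 and 105 CPM. The KRT19-OVE libraries held 104, 94.4, 107 and 104 CPM. Each group had 1 library near 94 CPM, EV replicate 1 and KRT19-OVE replicate 2, and the other 6 libraries lay between 104 and 108 CPM.

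The means of CDKN2A were 104 ± 6.42 CPM in EV and 102 ± 5.34 CPM in KRT19-OVE (SD, n = 4 each), with a log2 fold change of -0.021 ± 0.059 (SE, edgeR p = 0.722, adjusted p = 0.973, exact permutation p = 0.543). The 95% interval of -0.15 to 0.10 overlaps that of CDKN1A. Leaving out 1 library moved the value between -0.064 (without EV replicate 1) and 0.014 (without KRT19-OVE replicate 2), where its sign turned.

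CDKN2B (ENSG00000147883, chromosome 9, 22002903 to 22009363, minus strand) encodes p15, known as a target of TGF-beta signalling. Its EV libraries held 36.6, 36.3, 38.8 and 35.8 CPM. In KRT19-OVE, 34.0, 33.1, 38.6 and 34.5 CPM were measured. Of the KRT19-OVE libraries, 3 lay below every EV library, and replicate 3 lay above 3 of the 4 EV libraries.

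The log2 fold change of CDKN2B was -0.071 ± 0.064 (SE, 95% interval -0.21 to 0.065), between means of 36.9 ± 1.34 CPM in EV and 35.1 ± 2.42 CPM in KRT19-OVE (SD, n = 4 each). It did not pass the edgeR test (p = 0.286, adjusted p = 0.925), and the exact permutation test gave p = 0.257. Leaving out 1 library moved the log2 fold change of CDKN2B between -0.12 (without KRT19-OVE replicate 3) and -0.045 (without EV replicate 3 or KRT19-OVE replicate 2), with unadjusted edgeR p-values of 0.0610, 0.524 and 0.528.

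CDKN2C (ENSG00000123080, chromosome 1, 50960745 to 50974633, plus strand) encodes p18, another inhibitor of CDK4 and CDK6. The EV libraries held 63.2, 65.0, 61.5 and 58.0 CPM. The KRT19-OVE libraries held 63.3, 58.2, 59.0 and 57.8 CPM. The groups covered nearly the same range, with means of 61.9 ± 3.01 and 59.6 ± 2.52 CPM (SD, n = 4 each).

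The log2 fold change of CDKN2C was -0.055 ± 0.057 (SE, 95% interval -0.18 to 0.066). It did not pass the edgeR test (p = 0.352, adjusted p = 0.933), and the exact permutation test gave p = 0.314. Leaving out 1 library moved it between -0.085 (without EV replicate 4 or KRT19-OVE replicate 1) and -0.031 (without EV replicate 2).

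CDKN2D (ENSG00000129355, chromosome 19, 10566462 to 10569059, minus strand) encodes p19 of the INK4 family, a protein distinct from ARF. Its EV libraries held 39.9, 43.3, 47.9 and 45.0 CPM. In KRT19-OVE, 43.1, 37.9, 38.4 and 41.0 CPM were measured. KRT19-OVE replicates 2 and 3 lay below every EV library, and the other two lay within the EV range.

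CDKN2D had the largest difference of the INK4 members, with 44.1 ± 3.34 CPM in EV and 40.1 ± 2.43 CPM in KRT19-OVE (SD, n = 4 each) and a log2 fold change of -0.14 ± 0.068 (SE, 95% interval -0.28 to 0.0069). The edgeR test gave p = 0.0607 and an adjusted p of 0.906, and the exact permutation test gave p = 0.114. Its unadjusted edgeR p lay under 0.05 in 5 of 16 alternative settings, among them the removal of GC and length trends, with 0.0157, and upper-quartile normalization, with 0.0450.

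Across the 7 members, 6 had a fitted log2 fold change below 0, as had 47.8% of all genes tested. The median was -0.071 over the 7 members, -0.15 over the CIP/KIP family and -0.063 over the INK4 family, beside 0.0051 over all genes tested. The members share libraries and are not independent measurements, and these counts and medians are given as a description.

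**Figure D2:**
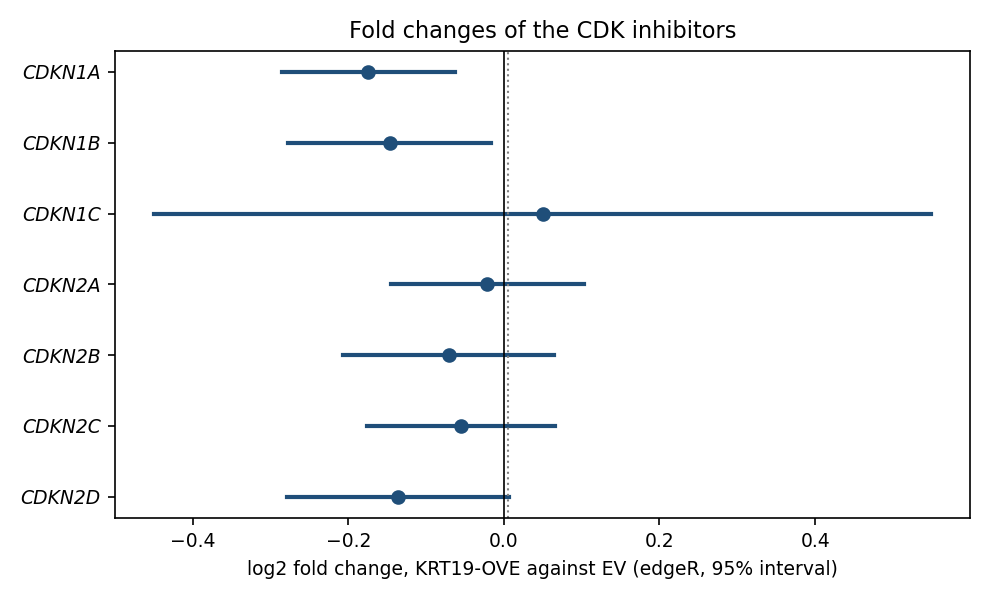
Fitted log2 fold change (KRT19-OVE over EV) of the 7 inhibitors with 95% intervals from edgeR. The intervals of CDKN1A (-0.29 to -0.063) and CDKN1B (-0.28 to -0.017) lie below 0, and those of the other 5 members include 0.

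Levels of different genes were compared only per length, as CPM per kilobase of exonic length. CDKN1A stood highest, at 69.4 ± 3.12 in EV and 61.5 ± 3.32 CPM per kilobase in KRT19-OVE (SD, n = 4 each), above 95.6% of the genes tested. CDKN2D followed at 29.3 ± 2.23 and 26.7 ± 1.62, and CDKN2A at 23.9 ± 1.48 and 23.6 ± 1.23 CPM per kilobase. CDKN2C lay at 18.7 ± 0.906 and 18.0 ± 0.759, next to CDKN1B at 17.5 ± 0.740 and 15.8 ± 0.986 CPM per kilobase. This pair was the only pair of neighbours whose ranges over the 8 libraries overlapped, although CDKN2C was the higher within 8 of 8 libraries.

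CDKN2B was lower, at 9.09 ± 0.331 and 8.64 ± 0.596 CPM per kilobase, and CDKN1C lowest, at 1.04 ± 0.341 and 1.09 ± 0.303 (SD, n = 4 each), above 21.9% of the genes tested. The order was the same in 8 of 8 libraries. It rests on the length used for CDKN2A, whose exons add up to 4329 bases while its longest transcript has 1283. With the longest transcript as length, CDKN2A had a mean of 80.2 in place of 23.8 CPM per kilobase over all libraries, next to CDKN1A at 88.1 in place of 65.5.

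Within the CIP/KIP family, CDKN1A made up 78.9% ± 1.10 of the summed level per kilobase in EV and 78.5% ± 1.84 in KRT19-OVE (SD, n = 4 each). CDKN1B made up 19.9% ± 1.07 and 20.2% ± 1.75, and CDKN1C the small rest. The shares of CDKN1A and CDKN1B thus differed by less than their spread, while the summed level was 87.9 ± 3.21 in EV and 78.4 ± 2.82 CPM per kilobase in KRT19-OVE.

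In the INK4 family, CDKN2D took 36.2% ± 1.46 and 34.7% ± 1.27, CDKN2A 29.5% ± 0.857 and 30.7% ± 0.919, CDKN2C 23.1% ± 1.57 and 23.4% ± 0.729, and CDKN2B 11.2% ± 0.430 and 11.2% ± 0.758 of the summed level in EV and KRT19-OVE (SD, n = 4 each). The sum was 81.0 ± 3.53 in EV and 76.9 ± 3.04 CPM per kilobase in KRT19-OVE. These shares depend on the length used. With the longest transcript as length, CDKN2A took 56.7% ± 1.03 in EV and 58.0% ± 1.06 in KRT19-OVE and led the family, ahead of CDKN2D at 21.7% ± 0.871 and 20.5% ± 0.937, while CDKN1A held 82.5% ± 0.966 and 82.0% ± 1.61 of the CIP/KIP family.

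Set against their targets, CDKN1A stood at 3.0 ± 0.109 times the level of CDK2 per kilobase in EV and at 2.66 ± 0.191 times in KRT19-OVE, and CDKN1B at 0.755 ± 0.0279 and 0.680 ± 0.0384 times (SD, n = 4 each). CDKN2A stood at 0.496 ± 0.0106 and 0.498 ± 0.0656 times the level of CDK4, and at 1.52 ± 0.192 and 1.45 ± 0.125 times that of CDK6. With the longest transcript of each gene as length, CDKN2A stood at 1.10 ± 0.0234 and 1.10 ± 0.145 times CDK4 and at 4.86 ± 0.615 and 4.65 ± 0.399 times CDK6, CDKN1A at 2.69 ± 0.0978 and 2.38 ± 0.172 times CDK2, and CDKN1B at 0.533 ± 0.0197 and 0.480 ± 0.0271 times CDK2. These are ratios of RNA levels and say nothing of the proteins.

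The 2 neighbours CDKN2A and CDKN2B were set among the other genes of 9p21, the region in which A549 is known to lack CDKN2A. Beside them, FOCAD held 1115 to 1375, KLHL9 513 to 691 and MTAP 653 to 870 counts per library. On the other side, DMRTA1 held 96 to 134 and the neuronal RNA-binding gene ELAVL2 24 to 42 counts. The interferon genes IFNB1, IFNA1 and IFNA2, silent in most cells at rest, were at 0 counts in all 8 libraries, and HACD4 (1 to 5), IFNE (0 to 3) and CDKN2A-DT (0 to 5) were near 0.

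CDKN2B-AS1, the antisense RNA also called ANRIL, had 21, 16, 32 and 25 counts in EV libraries. KRT19-OVE libraries had 15, 14, 23 and 11 counts. The groups overlapped, and the log2 fold change of -0.53 ± 0.28 (SE) did not pass the edgeR test (p = 0.0737, adjusted p = 0.906, exact permutation p = 0.0857). Of the 6 neighbours tested, 0 had an unadjusted p under 0.05 and the median log2 fold change was -0.046.

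**Figure D3:**
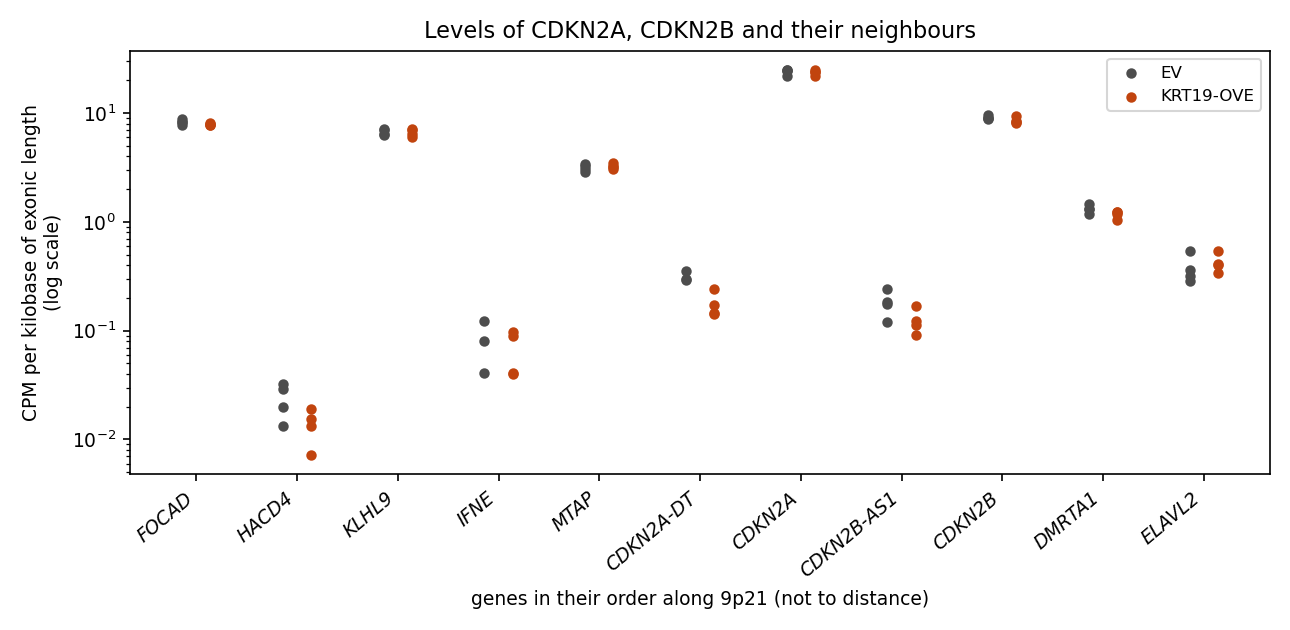
Level of CDKN2A, CDKN2B and their neighbours on 9p21 in each library, in CPM per kilobase on a log axis, with genes in order of start position. CDKN2A (21.8 to 24.9) and CDKN2B (8.17 to 9.57) are present in all 8 libraries, and libraries at 0 counts, among them all 8 of IFNB1, IFNA1 and IFNA2, are not drawn.

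The other genes of the pathway were read in the same edgeR fit. Of 12 tested CDKs and cyclins, 0 passed the adjusted threshold, 1 was higher and 0 were lower at an unadjusted p under 0.05, and the median log2 fold change was 0.0043. At an unadjusted p under 0.05, 2.85% of all genes tested were higher. The higher gene was CCNE2, a cyclin E that activates CDK2, with means of 10.1 ± 1.70 and 12.3 ± 2.17 CPM in EV and KRT19-OVE (SD, n = 4 each, log2 fold change 0.29 ± 0.13 SE, edgeR p = 0.0447, adjusted p = 0.906, exact permutation p = 0.143). Its groups overlapped, at 7.61 to 11.4 and 11.0 to 15.5 CPM, and CCND2 was at 0 counts in all 8 libraries.

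Of the 13 pocket proteins, E2F factors and their partners, 0 had an unadjusted p under 0.05 and the median was 0.048. Of 18 genes for breakdown of the inhibitors, such as the ubiquitin ligase subunits that mark p27 and p21, 0 passed the adjusted threshold, 0 were higher and 1 was lower at an unadjusted p under 0.05, with a median of 0.029. The lower gene was CKS2, a small CDK-binding protein of the CKS family, with means of 162 ± 4.78 and 151 ± 2.43 CPM in EV and KRT19-OVE (SD, n = 4 each, log2 fold change -0.10 ± 0.046 SE, edgeR p = 0.0409, adjusted p = 0.906, exact permutation p = 0.0286). The 4 KRT19-OVE libraries of CKS2 (147 to 153 CPM) lay below the 4 EV libraries (158 to 169 CPM). Of the pathway genes, CCNB2, a mitotic cyclin B, was the only other one without overlap, at 201 to 208 CPM in EV and 194 to 200.5 CPM in KRT19-OVE libraries, with a log2 fold change of -0.040 (edgeR p = 0.375, adjusted p = 0.938, exact permutation p = 0.0286). Over all genes tested, 3.44% had no overlap between the groups.

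Of 23 transcription and Polycomb regulators known to act on the inhibitor genes, among them SP1, KLF4, SMAD3, BMI1 and EZH2, 0 had an unadjusted p under 0.05 and the median was 0.028. Of 5 other genes with CDKN or CDK2AP in their names, such as CDKN3 at 65.2 ± 1.84 and 64.3 ± 2.06 CPM (SD, n = 4 each), 0 had an unadjusted p under 0.05 and the median was -0.0066. The regulators and partners of the inhibitors, in lists of 12, 13, 18, 23 and 5 tested genes, thus gave 2 genes at an unadjusted p under 0.05, CCNE2 and CKS2. The share over all genes tested was 5.41%. Leaving out single libraries moved the number of pathway genes between 0 (without EV replicate 3) and 6 (without KRT19-OVE replicate 1).

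**Figure D4:**
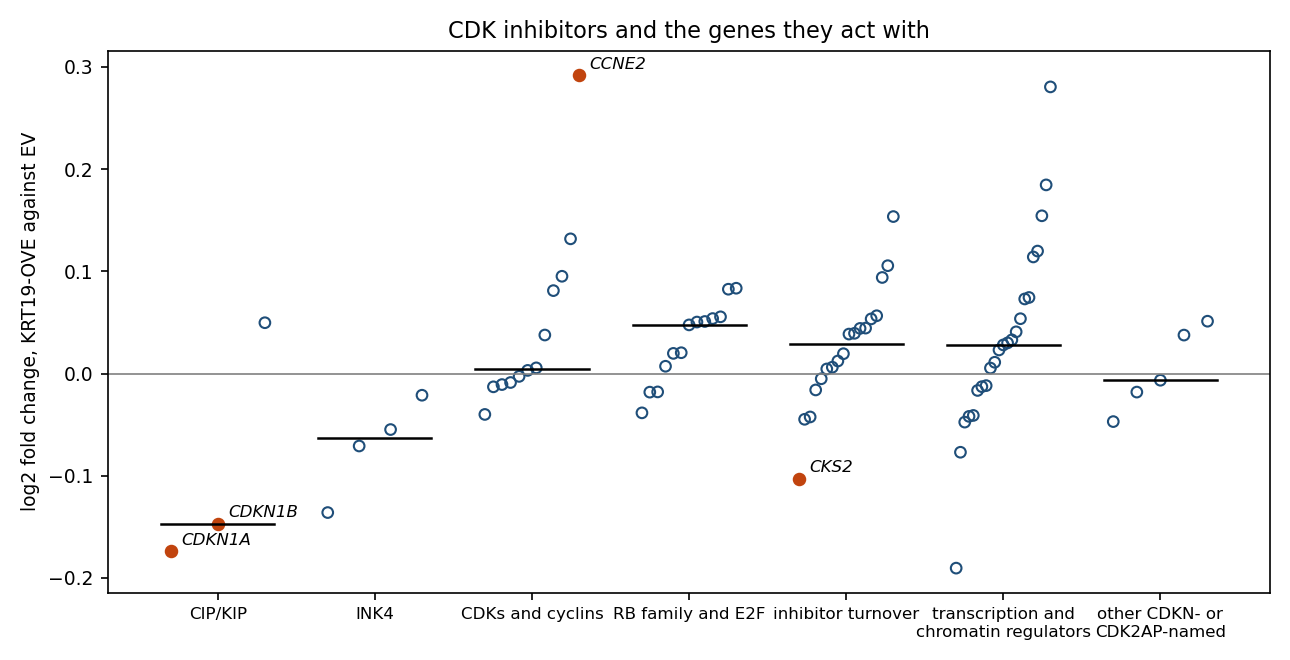
Fitted log2 fold change (KRT19-OVE over EV) of each tested gene in the inhibitor families and pathway lists, with the list median as a bar and filled points for an unadjusted p under 0.05 in edgeR. CDKN1A, CDKN1B, CCNE2 and CKS2 are the filled points, and 0 genes passed the adjusted threshold.

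The genes whose log2 CPM followed CDKN1A most closely over the 8 libraries were sought among 9510 genes with a mean of at least 10 CPM, of which 68 had a Pearson r over 0.9 with it. The first 5 were SUN1 (r = 0.973), a protein of the nuclear envelope, JAG2 (0.973), a Notch ligand, VAT1L (0.967), DYRK1B (0.960), a kinase linked to cell quiescence, and CHTF8 (0.959), a subunit of a clamp loader at replication forks. The values share their libraries and scaling and are a description over 8 points.

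**Figure D5:**
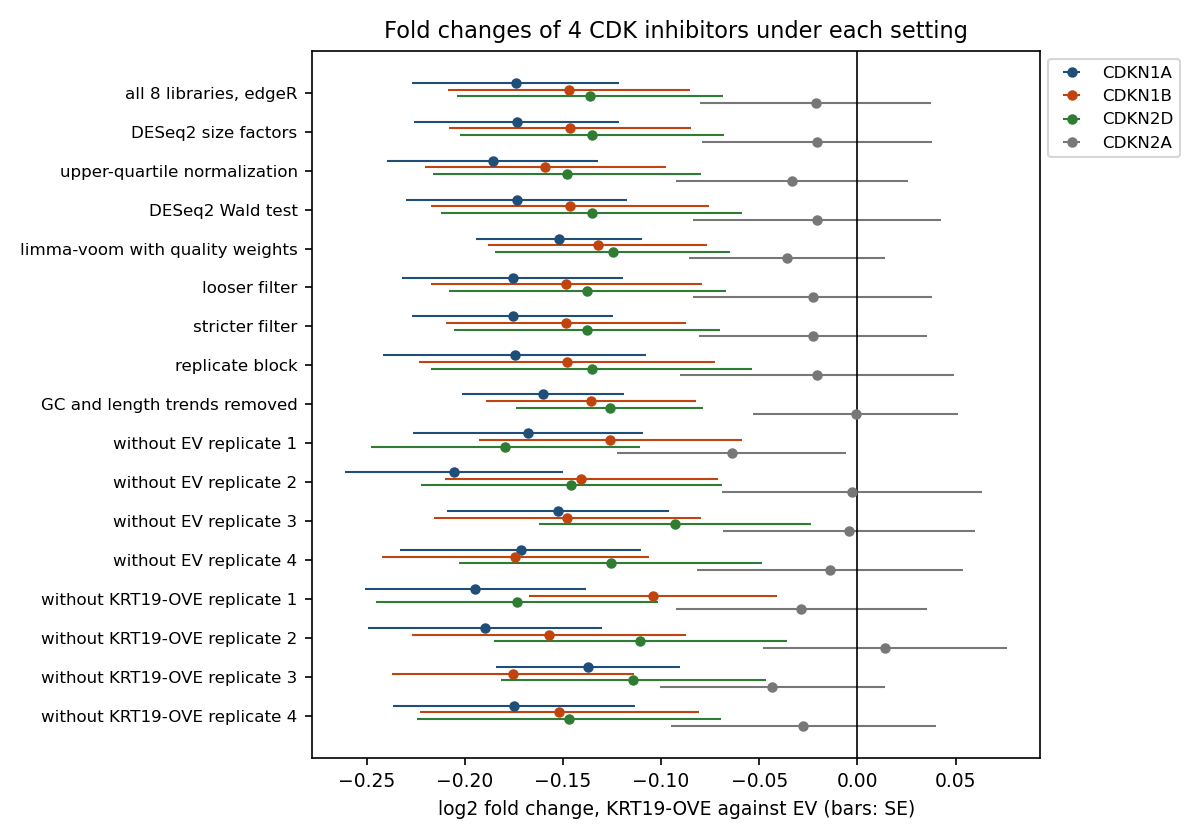
Fitted log2 fold change ± SE of CDKN1A, CDKN1B, CDKN2A and CDKN2D under the reported fit and 16 alternative settings. CDKN1A stays between -0.21 and -0.14 and CDKN1B between -0.18 and -0.10, whereas CDKN2A lies between -0.064 and 0.014.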

How the data were processed

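Read counts per gene were deposited by the authors in 1 table for 8 libraries, without normalization. The submitters' processing notes name Bowtie 0.12.2, featureCounts 1.5.0-p3, DESeq2 and hg38, with no role given, and strand and multi-mapping settings are not given in the sources used here. All 58735 gene identifiers matched GENCODE 29, with the same start and end. Groups and replicate numbers came from the labels. The members and gene lists were chosen with earlier results of these data known.

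Counts were fitted over the whole table in R 4.3.3 with edgeR 4.0.16 (filterByExpr, TMM, glmQLFit and glmQLFTest, group as the only term), and p-values were two-sided and adjusted by Benjamini-Hochberg over 14621 genes, which took up at least 99.8% of every library. Single values were compared by exact permutation. Gene names outside the members are all genes of a list at an unadjusted p under 0.05 (at most 6 per list, smallest p first, where none passed the adjusted threshold), all 9p21 neighbours and the 5 genes most like CDKN1A. Further pathway and marker genes named with a value served as examples or label checks and were chosen with values known. The floor of a library was set at 3 counts (0.175 to 0.213 CPM) and covers counting error only. Replicate pairs differed beyond counting noise (chi-square per degree of freedom 2.78 to 13.6 over 12 pairs). Alternatives were scaling by DESeq2 size factors or upper quartiles, limma-voom (limma 3.58.1) with quality weights, the Wald test of DESeq2 1.42.0, looser and stricter filters (a total of 1 count or more, and 5 CPM or more in 4 or more libraries), a replicate block, removal of GC and length trends (splines with 5 degrees of freedom), leaving out each library, other lengths and CPM on total counts for the levels. Added after the data were seen were CPM on total counts for the overlap of the groups, and shares and ratios with the longest transcript as length. The fit was tested on simulated data of the KRT19-OVE against EV comparison. Among 14469 genes it recovered 8% of those given a log2 change of 0.25 at the adjusted threshold. Among 14445 genes it recovered 87% of those given a log2 change of 1. These shares include changed genes that the filter removed, and 196 changed genes were tested each time.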

Additional observations from a re-analysis of the deposited data

Results flagged for a closer look

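Of 16 groups of 4 libraries checked for a library far from the others (8 genes in each of 2 groups), 1 stood out, where chance gives 0.8. It was KRT19 in KRT19-OVE replicate 3, at 288 CPM against 310 to 311 CPM in the other three, and the gap took up 0.949 of the range of the group on the log2 scale. None of the 7 inhibitors stood out in this way.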

How the results depend on the processing

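Under 16 alternative settings, 0 of the 7 inhibitors passed the adjusted threshold, and CDKN1A kept an unadjusted p under 0.05 in 16 of 16 (adjusted p 0.216 to 0.999), CDKN1B in 12 of 16 and CDKN2D in 5 of 16. The number of inhibitors at an unadjusted p under 0.05 was 2 as reported, 3 with upper-quartile normalization, limma-voom or GC and length trends removed, and 1 to 2 with 1 library left out (1 without EV replicate 2). With the replicate block it was 1, as CDKN1B then had an unadjusted edgeR p of 0.0709, and the pathway lists had 0 genes. The residuals of same-numbered libraries correlated at -0.111, -0.0239, -0.159 and 0.0567, so the numbers were not taken as pairing the libraries. CDKN1C turned to -0.061 without EV replicate 1, -0.069 without EV replicate 4 and -0.14 without KRT19-OVE replicate 2 (range -0.14 to 0.28 with 1 library left out), and the stricter filter removed it. CDKN2A turned to 0.014 without KRT19-OVE replicate 2 (range -0.064 to 0.014). With 1 library left out, the pathway lists had 0 to 6 genes at an unadjusted p under 0.05 (0 without EV replicate 3, 6 without KRT19-OVE replicate 1), and they had 1 with upper-quartile normalization, 6 with limma-voom, 5 with the looser filter and 1 with the stricter filter. With the longest transcript as length, levels were 88.1 for CDKN1A, 17.6 for CDKN1B, 80.2 for CDKN2A and 20.9 CPM per kilobase for CDKN2C, against 65.5, 16.6, 23.8 and 18.3. Over all genes, 791 had an unadjusted p under 0.05 (417 higher). The looser filter gave 1559 such genes among the 30250 it tested. Of the same 14621 genes, limma-voom gave 1337, trend removal 1197 and the replicate block 451. Without KRT19-OVE replicate 1 there were 1228 among 14823 genes. Upper-quartile normalization gave 322 higher of 796. The adjusted threshold was passed by 1 gene as reported, 5 with the DESeq2 Wald test, 8 with limma-voom and 5 with trends removed. It was passed by 71 of 30250 genes with the looser filter, and by 1 to 5 with 1 library left out (3 without EV replicate 1, 5 without KRT19-OVE replicate 3). The causes were not tested. Of all values recomputed, 187 kept their direction and side of the threshold or moved within their spread, 26 moved and 4 turned in sign. Low counts limit what can be said of CDKN1C, CDKN2B-AS1 and ELAVL2, and for CDKN1C the measured spread also exceeded that of counting.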
